A study of Homo sapiens with 4 samples.

Results

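The genes described here encode the enzymes that bring pyruvate into the mitochondrion, turn the tricarboxylic acid (TCA) cycle, and refill or drain it. They are 34 genes named by symbol, found among the 78686 features of the count tables by Ensembl identifier, and all 34 were present. HEK293 cells, a transformed human line from embryonic kidney, were compared as HEMK1 KO cells (2 libraries) and WT cells (2 libraries). The KO cells were clone 1F8, grown from a single sorted cell after transfection with a mixture of plasmids for Cas9 and 2 guide RNAs against HEMK1, so clonal differences and loss of the gene cannot be told apart. Both genotypes were kept in high-glucose DMEM with serum and added L-glutamate, and the labels name no further allele or agent for either. Whether the WT cells also passed through a single-cell step is not stated in the labels.

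Pyruvate dehydrogenase converts pyruvate into acetyl-CoA, and citrate synthase joins that acetyl-CoA to oxaloacetate to start the cycle. Carboxylation of pyruvate and entry of glutamate replace intermediates that leave for synthesis, a process called anaplerosis. Several steps exist as a mitochondrial enzyme and a cytosolic counterpart made from another gene, and the malate-aspartate shuttle uses both forms of malate dehydrogenase and of aspartate aminotransferase to carry reducing equivalents across the inner membrane. HEMK1 is the methyltransferase that modifies the release factors ending translation in mitochondria. The question here is how transcripts of the nuclear genes above stood in cells edited at HEMK1.

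Library totals were 2856784 and 3202039 counts in HEMK1 KO cells and 2476471 and 2671594 counts in WT cells. The 34 genes took 0.422% and 0.396% of them in HEMK1 KO libraries and 0.391% and 0.403% in WT libraries. HEMK1 itself had 1 and 7 counts in HEMK1 KO libraries and 6 and 9 counts in WT libraries, too few to check the genotype. Of 7 genes this line is known for, 5 were detected, among them NEFL and GATA3, while PAX2 and LHX1 were at 0. Markers of blood cells summed to 3.15 and 11.6 CPM (counts per 1000000 of the library; CPM of the pathway genes below are also TMM-scaled) in HEMK1 KO libraries and to 0 and 0.374 CPM in WT libraries, with all 6 detected somewhere; their part in the differences below was not tested. Fibroblast markers summed to between 27.2 and 33.3 CPM in HEMK1 KO libraries and between 19.1 and 23.0 CPM in WT libraries, most of it LUM, with COL1A2 and DCN at 0. Hepatocyte markers reached 1 count in all and the 3 keratinocyte markers 0.

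The contrast that recurs below is in transcript level, between a cytosolic and a mitochondrial form of the same enzyme. The first 60 coding bases printed here do not show that level, and no presequence is marked in them. Malate dehydrogenase and aspartate aminotransferase are shown because they are the pairs of the malate-aspartate shuttle. The mitochondrial forms open with codons for a presequence that is cleaved after import, which the cytosolic forms lack. The sequences are from GENCODE 29 transcripts on GRCh38, 5′ to 3′ on the coding strand from the ATG, with G and C in capitals.
MDH1: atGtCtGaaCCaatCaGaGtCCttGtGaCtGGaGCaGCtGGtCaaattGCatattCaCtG
MDH2: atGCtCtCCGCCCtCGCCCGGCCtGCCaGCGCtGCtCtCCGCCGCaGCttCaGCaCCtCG
GOT1: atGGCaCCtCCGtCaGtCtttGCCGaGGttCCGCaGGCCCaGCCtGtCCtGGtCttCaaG
GOT2: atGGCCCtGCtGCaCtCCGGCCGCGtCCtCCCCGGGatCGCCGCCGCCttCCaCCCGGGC
In this window G and C made up 27 of 60 bases in MDH1 and 44 in MDH2, and 37 in GOT1 and 47 in GOT2. Over the whole coding sequence the share was 45.4% in MDH1 against 57.3% in MDH2, and 52.3% in GOT1 against 53.1% in GOT2.

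Levels within the pathway were very uneven, and a few genes supplied most of its reads. MDH1, the cytosolic malate dehydrogenase, alone took 34.6% and 34.2% of the 34 genes' counts in HEMK1 KO libraries and 35.5% and 33.5% in WT libraries. With DLD, PDK3, IDH3A and GOT1 the share was 77.1% and 75.3% in HEMK1 KO libraries and 73.4% and 74.6% in WT libraries. Per kilobase of exon, the mean level over the 4 libraries was 278 CPM for MDH1, 117 for DLD, 87.6 for PDK3, 68.7 for GOT1, 52.2 for IDH3A and 46.0 for IDH1. At the other end IDH2, the mitochondrial NADP-dependent isocitrate dehydrogenase, stood at 0.195 CPM per kilobase and ME3, a mitochondrial malic enzyme, at 0.0224. MDH1 held the first place and ME3 the last also when the length of the principal transcript replaced that of all exons.

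**Figure D1:**
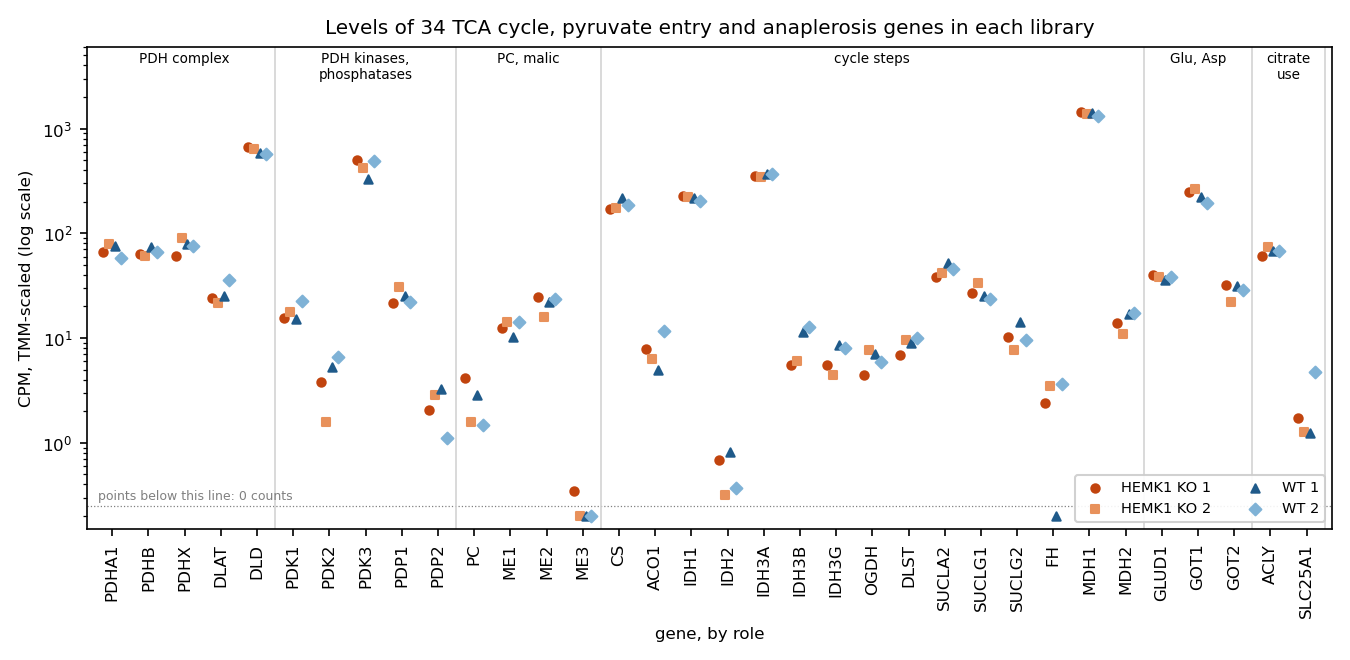
CPM (log axis) of each of the 34 genes in the 4 libraries, grouped by role, with the HEMK1 KO libraries left of the WT libraries at each gene. The libraries of a gene lie close together beside the span between genes, which runs from ME3, with 1 read in all, to MDH1 at 1323 to 1435 CPM.

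None of these genes was called between HEMK1 KO and WT cells. Of the 34, 28 passed the count filter, and the quasi-likelihood test of edgeR, adjusted after Benjamini and Hochberg over all genes, called 0 as higher and 0 as lower at an adjusted p under 0.05, against 0.0469% and 0.281% of the 10670 genes tested. At an unadjusted p under 0.05, 0 were higher (background 4.09%) and 2 lower (background 4.35%), IDH3B and PDK2. In the authors' deposited table, made with DESeq2, 0 of the 32 that have an adjusted p were past 0.05, against 0.274% of its genes, and the smallest unadjusted p was 0.0820, for IDH3B. The same tool run here gave 0 calls and 0 members at an unadjusted p under 0.05.

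Log2 fold changes of HEMK1 KO over WT ran from −1.16 for PDK2 to 0.32 for SUCLG1. The median of the 28 was −0.12, beside a median of 0.01 over all tested genes. Of the 28, 10 were above 0 (35.7%, against 51.2% of all tested genes) and 18 below. Both HEMK1 KO libraries lay above both WT libraries in CPM for 5 genes, or 17.9% of the 28, against 21.4% of all tested genes. They lay below both WT libraries for 9 genes, or 32.1%, against 17.8%. For 21 of the 28 the 95% interval of the fold change stayed within a 2-fold difference in either direction, and for the other 7 it reached beyond that. The median absolute difference between replicates of these genes was 0.25 on the log2 scale in HEMK1 KO and 0.16 in WT. Between the genotypes it was 0.18. The replicate values compare single libraries and the genotype value compares groups of 2, which vary less, so their sizes are not directly comparable.

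**Figure D2:**
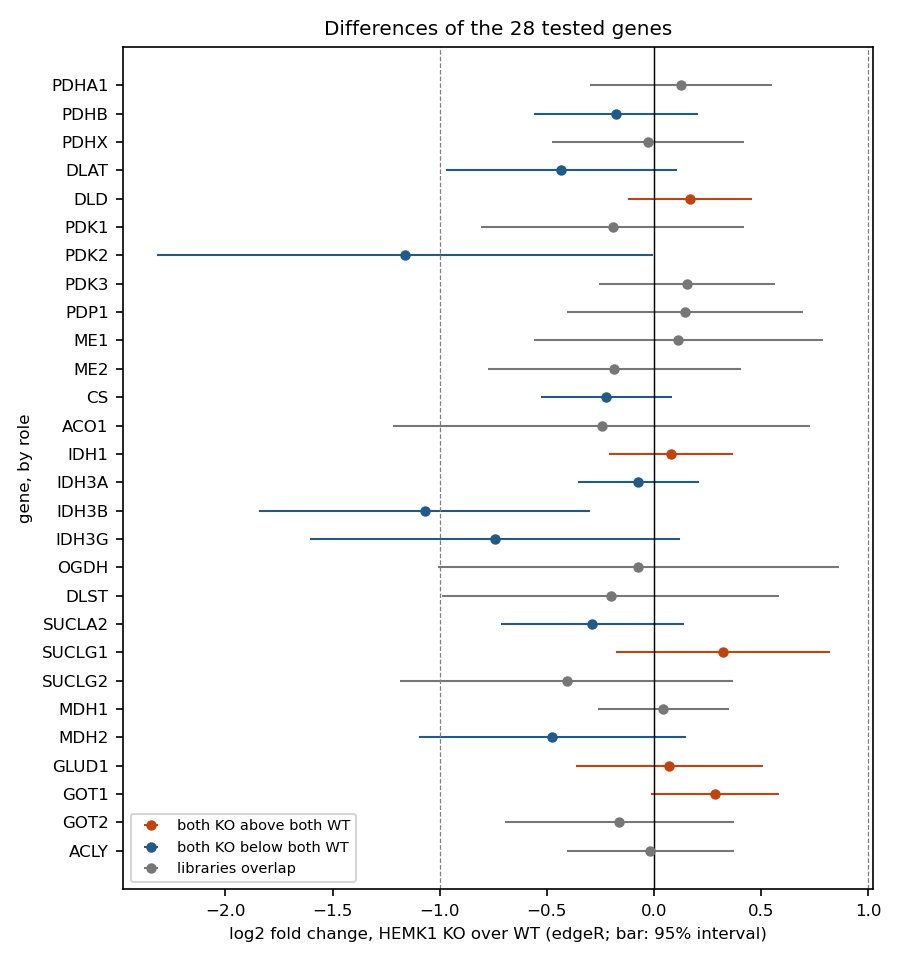
Log2 fold change of HEMK1 KO over WT for the 28 genes past the count filter, in order of role, with 95% intervals from edgeR and dashed lines at a 2-fold difference. Intervals of IDH3B and PDK2 end below 0 (unadjusted), and those of the abundant genes MDH1, DLD, IDH1 and IDH3A lie within 0.5 of 0.

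The subunits of the pyruvate dehydrogenase complex summed to 884 and 889 CPM in HEMK1 KO libraries and to 844 and 808 CPM in WT libraries. DLD, the dihydrolipoamide dehydrogenase that this complex shares with the 2-oxoglutarate and branched-chain complexes, supplied most of that. It had 670 and 638 CPM in HEMK1 KO libraries and 590 and 573 CPM in WT libraries. Both HEMK1 KO values were the higher ones, at a log2 fold change of 0.17 ± 0.13 (SE, n = 2 per group; edgeR adjusted p = 0.791). DLAT, the acetyltransferase core (E2), had 24.1 and 21.7 CPM in HEMK1 KO libraries and 25.5 and 36.0 CPM in WT libraries. The HEMK1 KO values were the lower ones, but the WT libraries differed from each other by more than the nearest KO and WT values did (−0.43 ± 0.25; adjusted p = 0.677). PDHA1 and PDHB, the alpha and beta subunits of the decarboxylase (E1), were at 0.13 ± 0.19 and −0.18 ± 0.18, and PDHX, which tethers DLD to the core, at −0.03 ± 0.20.

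E1 is built from equal numbers of both its subunits. Per kilobase of exon the ratio of PDHA1 to PDHB was 1.09 and 1.38 in HEMK1 KO libraries and 1.07 and 0.921 in WT libraries. With the length of the principal transcript it lay between 0.405 and 0.605 over the 4 libraries, so their order depends on the length used. This ratio, like those of kinases and of other subunits below, was chosen after the values were seen. DLD stood at 117 CPM per kilobase over the 4 libraries, against 20.3 for PDHX, 15.5 for PDHA1, 14.0 for PDHB and 5.55 for DLAT. About 21.3% of the exon bases of PDHA1 also lie in MAP3K15, so its count is less certain.

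Of the kinases that phosphorylate and inactivate E1, PDK3 was by far the most abundant. It had 495 and 419 CPM in HEMK1 KO libraries and 329 and 491 CPM in WT libraries. The groups overlapped and WT replicate 1 was the low one, with a log2 fold change of 0.15 ± 0.19 (SE, n = 2 per group; edgeR adjusted p = 0.895). Without WT replicate 1 the value was −0.10, and without WT replicate 2 it was 0.44. PDK1, the isoform induced by hypoxia, had 15.5 and 17.5 CPM in HEMK1 KO libraries and 15.2 and 22.4 CPM in WT libraries. Per kilobase PDK3 exceeded PDK1 by 96.1 and 71.9 times in HEMK1 KO libraries and by 65.2 and 65.9 times in WT libraries.

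PDK2, a kinase isoform found in most tissues, had the lowest log2 fold change of the 28 tested members. Its counts were 11 and 5 in HEMK1 KO libraries and 13 and 18 in WT libraries. PDK2 passed the count filter by way of WT, where it was higher, and its HEMK1 KO libraries alone would not have passed. Its lowest place among tested members and its unadjusted p under 0.05 therefore rest in part on that filter. Both HEMK1 KO libraries were below both WT libraries in CPM, at 3.79 and 1.59 against 5.34 and 6.60, with a log2 fold change of −1.16 ± 0.53 (SE; 95% interval −2.32 to −0.0044; edgeR adjusted p = 0.589). PDK2 lies on chromosome 17, positions 50094737 to 50112152 of GRCh38, where 38.6% of its exon bases also belong to SAMD14, and 59.8% of its principal transcript is G or C. The value depended on the second KO library: it was −0.65 without HEMK1 KO replicate 2 and −1.91 without HEMK1 KO replicate 1.

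The phosphatases that reactivate E1 were low. PDP1 had 63 and 96 counts in HEMK1 KO libraries and 62 and 60 counts in WT libraries, and the CPM of the groups overlapped (0.14 ± 0.25; edgeR adjusted p = 0.937). PDP2 had 6 and 9 counts in HEMK1 KO libraries and 8 and 3 in WT libraries, and was not tested. Summed and scaled, its HEMK1 KO counts were 1.17 times its WT counts (95% exact counting interval 0.500 to 2.80). Kinases and phosphatases together summed to 538 and 472 CPM in HEMK1 KO libraries and to 378 and 543 CPM in WT libraries, which follows PDK3.

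Pyruvate carboxylase, the main anaplerotic enzyme that makes oxaloacetate, was barely detected. PC had 12 and 5 counts in HEMK1 KO libraries and 7 and 4 in WT libraries, 1.32 times as many after scaling (counting interval 0.583 to 3.12). The malic enzymes, which turn malate into pyruvate, were low as well. ME1, the cytosolic NADP form, had 36 and 45 counts in HEMK1 KO libraries and 25 and 39 in WT libraries (log2 fold change 0.11 ± 0.31; edgeR adjusted p = 0.962), and ME2, a mitochondrial form, had 71 and 50 counts in HEMK1 KO libraries and 54 and 64 in WT libraries (−0.18 ± 0.27). For both, the groups overlapped. ME3 had 1 count, in HEMK1 KO replicate 1.

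Citrate synthase, CS, had 172 and 173 CPM in HEMK1 KO libraries and 216 and 186 CPM in WT libraries. The HEMK1 KO values were the lower ones and nearly equal to each other, at a log2 fold change of −0.22 ± 0.14 (SE, n = 2 per group; edgeR adjusted p = 0.708). ACO1, the cytosolic aconitase that doubles as an iron sensor, had 23 and 20 counts in HEMK1 KO libraries and 12 and 32 in WT libraries. Its WT libraries lay on both sides of the HEMK1 KO libraries. The log2 fold change of ACO1, −0.24 ± 0.44, was 0.50 without WT replicate 2 and −0.72 without WT replicate 1.

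The subunits of the NAD-dependent isocitrate dehydrogenase, the oxidative step inside the cycle, gave the smallest p-value of the pathway. IDH3B, the beta subunit, had 16 and 19 counts in HEMK1 KO libraries and 28 and 35 in WT libraries, or 5.51 and 6.05 CPM against 11.5 and 12.8 CPM. Each HEMK1 KO value was about level with the other and well below each WT value. This gave a log2 fold change of −1.07 ± 0.35 (SE; 95% interval −1.84 to −0.30), with an edgeR p of 0.0109 that became 0.384 after adjustment over all genes.

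IDH3G, the gamma subunit, had 16 and 14 counts in HEMK1 KO libraries and 21 and 22 in WT libraries, or 5.51 and 4.46 CPM against 8.62 and 8.07 CPM. Again both HEMK1 KO values were below both WT values, at a log2 fold change of −0.74 ± 0.39 (edgeR adjusted p = 0.652). IDH3A, the catalytic alpha subunit, had 352 and 343 CPM in HEMK1 KO libraries and 366 and 364 CPM in WT libraries. The groups did not overlap but the difference was small, −0.07 ± 0.13 (adjusted p = 0.937), with an interval of −0.35 to 0.21. Beta and gamma are the regulatory subunits of this enzyme and pair with alpha.

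Per kilobase of exon IDH3A exceeded IDH3B by 24.0 and 21.3 times in HEMK1 KO libraries and by 12.0 and 10.7 times in WT libraries. The ratio of IDH3A to IDH3G was 25.4 and 30.6 in HEMK1 KO libraries and 16.9 and 17.9 in WT libraries. Neither ratio overlapped between the groups, and the exact two-sided permutation p was 0.33 for each, the smallest that 2 against 2 libraries allow. The 2 ratios share IDH3A. IDH3B lies on chromosome 20, positions 2658395 to 2664219, and IDH3G on chromosome X, positions 153785766 to 153794523, where 10.2% of its exon bases also belong to SSR4; for IDH3A, on chromosome 15, positions 78131498 to 78171949, 38.9% are shared with ACSBG1 and CIB2. With the strand setting unknown, such counts are less certain.

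The NADP-dependent isocitrate dehydrogenases differ from this enzyme in cofactor and are made from IDH1 and IDH2. IDH1, in the cytosol and peroxisomes, had 225 and 221 CPM in HEMK1 KO libraries and 218 and 204 CPM in WT libraries (0.08 ± 0.13, SE; edgeR adjusted p = 0.936). IDH2, in mitochondria, had 2 and 1 counts in HEMK1 KO libraries and 2 and 1 in WT libraries, too few for any comparison of genotypes.

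Further round the cycle, OGDH and DLST, the first components of the 2-oxoglutarate dehydrogenase complex, were low and overlapped between groups. OGDH had 13 and 24 counts in HEMK1 KO libraries and 17 and 16 in WT libraries (−0.07 ± 0.43, SE; edgeR adjusted p = 0.985). DLST had 20 and 30 counts in HEMK1 KO libraries and 22 and 27 in WT libraries (−0.20 ± 0.36). Per kilobase OGDH stood at 1.20 CPM and DLST at 1.94 CPM, against 117 CPM for the DLD they share with pyruvate dehydrogenase.

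Succinyl-CoA synthetase pairs an alpha subunit, SUCLG1, with a beta subunit that sets the nucleotide: SUCLA2 for ADP and SUCLG2 for GDP. SUCLG1 had the highest log2 fold change of the 28 tested members, 0.32 ± 0.23 (SE, n = 2 per group, edgeR adjusted p = 0.755). It had 27.2 and 33.5 CPM in HEMK1 KO libraries and 25.0 and 23.5 CPM in WT libraries. SUCLA2 had 38.2 and 41.4 CPM in HEMK1 KO libraries and 51.7 and 45.5 CPM in WT libraries (−0.29 ± 0.20; adjusted p = 0.736). The groups did not overlap for either subunit, SUCLG1 being on the higher side and SUCLA2 on the lower. SUCLG2 had 10.3 and 7.65 CPM in HEMK1 KO libraries and 14.4 and 9.54 CPM in WT libraries (−0.41 ± 0.35), and its groups overlapped. The ratio of SUCLA2 to SUCLG2 per kilobase was 1.28 and 1.88 in HEMK1 KO libraries and 1.25 and 1.65 in WT libraries, and between 3.86 and 5.81 over the 4 libraries with the length of the principal transcript.

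FH, the fumarase that hydrates fumarate in both compartments, had 7 and 11 counts in HEMK1 KO libraries and 0 and 10 in WT libraries. The 0 was in WT replicate 1, and over both libraries of each genotype the scaled HEMK1 KO counts were 1.54 times the WT counts (counting interval 0.673 to 3.73). FH was not tested.

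MDH1 had 1435 and 1384 CPM in HEMK1 KO libraries and 1409 and 1323 CPM in WT libraries, and the groups overlapped. The difference on the log2 scale was 0.04 ± 0.14 (SE, n = 2 per group; 95% interval −0.26 to 0.35; edgeR adjusted p = 0.971). MDH2, the mitochondrial form that closes the cycle, had 40 and 34 counts in HEMK1 KO libraries and 41 and 47 in WT libraries, or 13.8 and 10.8 CPM against 16.8 and 17.2 CPM. Both HEMK1 KO values were lower, at −0.47 ± 0.28 with an interval of −1.10 to 0.15 (adjusted p = 0.697). MDH1 lies on chromosome 2, positions 63588609 to 63607197, and MDH2 on chromosome 7, positions 76048051 to 76067508.

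Of the enzymes that exchange amino acids with the cycle, GOT1 had the smallest p among the tested members on the higher side. GOT1, the cytosolic aspartate aminotransferase, had 715 and 824 counts in HEMK1 KO libraries and 539 and 533 in WT libraries, or 246 and 263 CPM against 221 and 196 CPM. Both HEMK1 KO values were above both WT values, with a log2 fold change of 0.29 ± 0.14 (SE; 95% interval −0.01 to 0.59; edgeR adjusted p = 0.602). GOT1 lies on chromosome 10, positions 99396870 to 99431569, and shares 19.3% of its exon bases with AL391684.1.

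GOT2, the mitochondrial form, had 32.0 and 22.0 CPM in HEMK1 KO libraries and 31.6 and 28.6 CPM in WT libraries (−0.16 ± 0.24; edgeR adjusted p = 0.925). The HEMK1 KO libraries lay on both sides of the WT libraries. GLUD1, glutamate dehydrogenase, which turns glutamate into 2-oxoglutarate, had 39.6 and 38.2 CPM in HEMK1 KO libraries and 35.7 and 38.2 CPM in WT libraries, where only the second decimal kept the groups apart (0.07 ± 0.20; adjusted p = 0.963).

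Citrate leaves the mitochondrion through SLC25A1 and is split by ACLY into acetyl-CoA for lipid synthesis. ACLY had 60.9 and 73.9 CPM in HEMK1 KO libraries and 68.1 and 68.2 CPM in WT libraries, a log2 fold change of −0.02 ± 0.18 (SE, n = 2 per group; edgeR adjusted p = 0.994). The 2 WT values fell between the HEMK1 KO values. SLC25A1 had 5 and 4 counts in HEMK1 KO libraries and 3 and 13 in WT libraries, and was not tested. The scaled HEMK1 KO counts were 0.480 times the WT counts (counting interval 0.187 to 1.16), and 13 of the 16 WT counts came from WT replicate 2.

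In the 4 enzyme pairs reported here the cytosolic form exceeded the mitochondrial form per kilobase in every library. The ratio of MDH1 to MDH2 was 76.0 and 93.2 in HEMK1 KO libraries and 61.1 and 56.0 in WT libraries. GOT1 exceeded GOT2 by 8.59 and 13.4 times in HEMK1 KO libraries and by 7.83 and 7.64 times in WT libraries. In both pairs of the shuttle each HEMK1 KO ratio was above each WT ratio, with differences of 0.53 and 0.47 in mean log2 ratio (exact two-sided permutation p = 0.33 for each, the smallest possible here).

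ME1 exceeded ME2 by 2.44 and 4.34 times in HEMK1 KO libraries and by 2.23 and 2.94 times in WT libraries, and these overlapped. The ratio of IDH1 to IDH2 was 268 over the HEMK1 KO libraries (95% exact counting interval 91.5 to 1301) and 216 over the WT libraries (73.7 to 1049), since IDH2 had 3 counts in each group. With the length of the principal transcript, the MDH1 to MDH2 ratios lay between 103 and 171 and the GOT1 to GOT2 ratios between 5.76 and 10.1. With that length the ME1 to ME2 ratios lay between 1.29 and 2.51. Before division by length, ME2 had more counts than ME1 in every library.

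**Figure D3:**
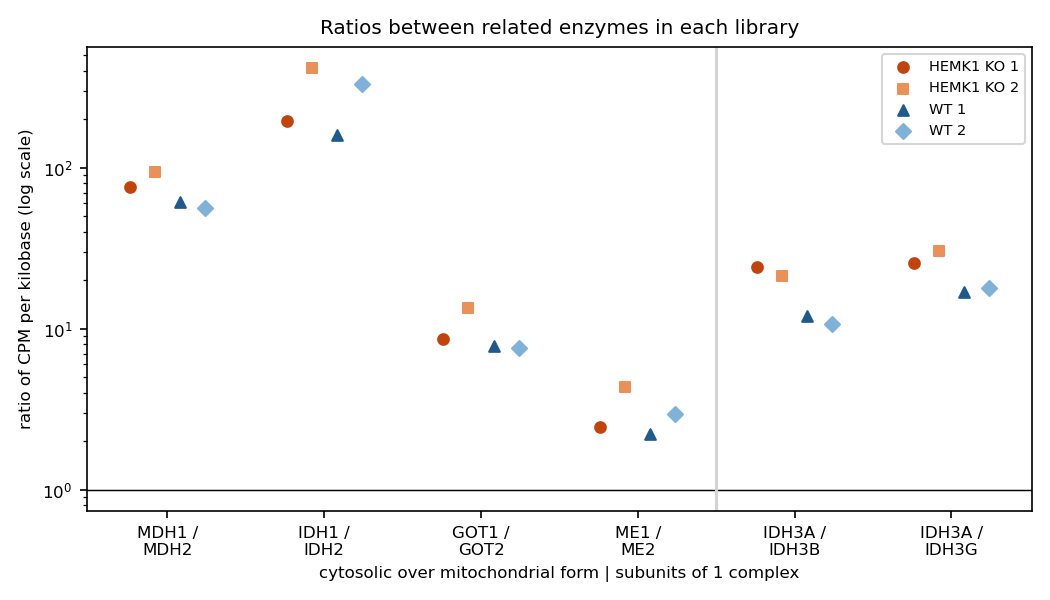
Ratio of CPM per kilobase of exon (log axis) in each library for 4 pairs of a cytosolic over a mitochondrial form and for IDH3A over its partner subunits. Points of HEMK1 KO libraries lie above those of WT libraries for MDH1 to MDH2, GOT1 to GOT2 and both IDH3 ratios, and the IDH1 to IDH2 points rest on 1 or 2 reads of IDH2.

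Levels were also set against base composition. The share of G and C in the principal transcript was under 50% in 21 of the 34 genes, among them MDH1, DLD, PDK3, IDH3A and IDH1, and at or above 50% in 13, among them IDH2, ME3, PC, PDK2, IDH3G, SLC25A1 and OGDH. The members' median level was 4.38 CPM per kilobase for the 4 genes below 40%, 5.55 for the 11 with 40% to 45% and 13.1 for the 6 with 45% to 50%. It was 5.81 for the 6 with 50% to 55%, 0.493 for the 4 with 55% to 60% and 1.07 for the 3 with 60% or more, so the medians showed no steady fall, and the lowest were those from 55% upward. Across the 34 genes Spearman's rho of level against GC share was −0.36, and across 14339 protein-coding genes with a count it was −0.47; genes are not independent replicates and all points share the same 4 libraries. The median protein-coding gene stood at 3.05 CPM per kilobase below 40% GC and at 0.0275 at 60% or more. GOT1, with 52.8%, was the exception among the 6 most abundant. What part base composition had in the levels of these genes, and in the ratios between them, was not tested.

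The genotype difference also varied with GC share, in these genes and in the rest. Among the 9 tested members with 50% or more, 1 had a log2 fold change above 0 and the median was −0.20; among the 19 below 50%, 9 were above 0 and the median was −0.03. Over all tested protein-coding genes the medians were −0.07 for 2398 genes at or above 50%, of which 41.1% were above 0, and 0.04 for 6079 genes below 50%, of which 57.4% were. IDH3B (54.6%), IDH3G (60.4%), PDK2 (59.8%) and MDH2 (52.3%) are in the first class, and GOT1 is its member above 0. The part of base composition in the members' differences was not tested.

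**Figure D4:**
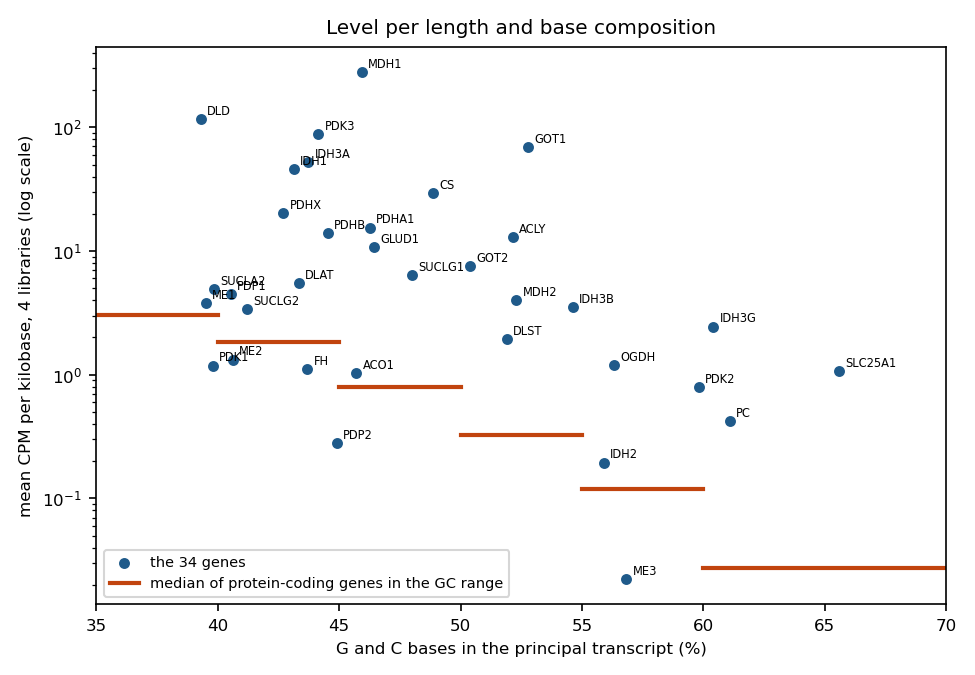
Mean CPM per kilobase of exon over the 4 libraries (log axis) against the percentage of G and C in the principal transcript for the 34 genes, with bars at the median of all protein-coding genes in each GC range, genes with no counts included. The bars fall from 3.05 to 0.0275 across the ranges (the outer ranges are drawn only up to the edge of the plot), and the members above 55% lie at 2.45 or below.

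Of 70 further symbols for succinate dehydrogenase, lipoylation, carriers, glutamine, propionate and branched-chain steps, 69 were in the files and 45 were tested. Of these 0 were called, against 0.0469% of all tested genes called higher and 0.281% lower. The log2 fold change was above 0 for 28 (62.2%, against 51.2% of all tested genes) and below 0 for 17. The median was 0.09, against 0.01 over all tested genes. SDHA, the flavoprotein of succinate dehydrogenase, had 8 and 2 counts in HEMK1 KO libraries and 12 and 18 in WT libraries (−1.78 ± 0.63, SE; edgeR adjusted p = 0.441). DHTKD1, a 2-oxoadipate dehydrogenase related to OGDH, had 67 and 74 counts in HEMK1 KO libraries and 40 and 32 in WT libraries (0.73 ± 0.27; adjusted p = 0.458), on chromosome 10, positions 12068972 to 12123225.

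PDK4, the kinase isoform induced by fasting in other tissues, had 12 and 11 counts in HEMK1 KO libraries and 19 and 18 in WT libraries (−0.91 ± 0.43; edgeR adjusted p = 0.594). For SDHA and PDK4 the HEMK1 KO libraries were the lower ones and for DHTKD1 the higher ones, with no overlap. Of the 45 tested, 20% lay above without overlap and 22.2% below, against 21.4% and 17.8% of all tested genes. These 3 were named for the smallest p, so their lack of overlap adds no separate support. SDHA and PDK4 passed the count filter by way of WT, and their HEMK1 KO libraries alone would not have passed. FASN, fatty acid synthase, which uses the acetyl-CoA that ACLY makes, had 0 counts in either HEMK1 KO library and 10 and 6 in WT libraries. With 3 counts as the limit for the HEMK1 KO libraries together, its level there was at least 6.25-fold lower. This takes the WT counts as exact. FASN did not pass the count filter and was chosen after its values were seen. Without that filter it was called (edgeR adjusted p = 0.0204), as were many more genes in all, 31 higher and 125 lower. That call rests on the values for which FASN was chosen, so it adds no separate support. DESeq2's test called 0 of the wider list.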

How the data were processed

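RNA-seq libraries of polyadenylated RNA were made with a low-input kit from 100 ng of total RNA, per the labels' protocols. The submitters' processing notes name FastQC, Trimmomatic, STAR, HTSeq and DESeq2 with hg38. For their versions, the annotation release and the strand setting, the entry is: not given in the sources used here. The deposited tables hold whole-number read counts for each gene, not normalised. The authors' deposited table gives log2 fold changes with p-values, raw and adjusted.

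Symbols came from a table of gene names (61463 features matched). Positions, exon lengths and transcripts came from GENCODE 29 on GRCh38, which may differ from the authors' annotation; the principal transcript is the longest of the best APPRIS class. Counts were filtered (filterByExpr, minimum count 10), TMM-scaled and tested across 10670 genes by robust quasi-likelihood with genotype alone in the design (R 4.3.3, edgeR 4.0.16). Standard errors were log2 fold change divided by the square root of F. DESeq2 1.42.0 was an alternative. Levels per kilobase divide CPM by the length of all exons. Counts were simulated for this contrast with 1 common dispersion for all genes (biological coefficient of variation 0.143), and 10318 genes were tested. The calls included 10.2% of 49 genes changed 1.5-fold, 41.7% of 48 changed 2-fold and 97.9% of 48 changed 4-fold. Of 124 calls, 4 were false. Spread was not set gene by gene, so recovery in the real data may differ, also for members with few counts.

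Members and lists were chosen with earlier results of these data known. All members were named; of the wider list, the 3 with the smallest p, and FASN, added after its values were seen. Of the enzyme pairs compared, 1 is not reported here. Replicates differed by more than sampling noise (chi-square per degree of freedom 5.38 in HEMK1 KO and 5.01 in WT). The labels speak of biological replicates, but with 1 clone p-values measure only the spread between these libraries. Counting intervals are exact binomial (Clopper-Pearson, 95%) and, like floors, cover counting error only, since reads carry no molecular identifiers. Floors cover it for the HEMK1 KO counts only. In bulk RNA, fewer cells with a transcript and less of it per cell cannot be told apart. Of 31 pseudogenes named after members, 8 had counts, at most 7 in a library, and reads could be split with them.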

Additional observations from a re-analysis of the deposited data

How the results depend on the processing

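No member was called under any of the 8 alternatives (DESeq2's size factors, DESeq2's test, no count filter, the replicate block, and each library left out); the smallest adjusted p of a member lay between 0.321 and 1. Over all genes 5 were higher and 30 lower as reported, against 31 and 125 without the filter, 29 and 111 with the replicate block, and 1 to 25 and 3 to 164 with a library left out. Of the wider list, 1 gene (FASN) was called without the filter. The members' median of −0.12 was −0.13 with DESeq2's size factors and with the replicate block, and −0.13 to −0.073 with a library left out. Same-numbered replicates did not deviate together (r = −0.035 across genes), so the numbers are not taken as pairs.

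Leaving out a library turned the sign of 12 members, all uncalled, and the cause was not tested. The values with each library left out in turn ranged from −0.16 to 0.082 for ACLY, −0.72 to 0.50 for ACO1, −0.49 to 0.092 for GOT2, −0.034 to 0.089 for MDH1, −0.10 to 0.35 for ME1, −0.55 to 0.10 for ME2 and −0.51 to 0.22 for OGDH. They ranged from −0.091 to 0.33 for PDHA1, −0.35 to 0.20 for PDHX, −0.44 to 0.088 for PDK1, −0.10 to 0.44 for PDK3 and −0.12 to 0.33 for PDP1. IDH3B stayed between −1.15 and −1.02, IDH3G between −0.93 and −0.59, PDK2 between −1.91 and −0.65, MDH2 between −0.69 and −0.30 and GOT1 between 0.17 and 0.38. Differences in log2 ratio ranged from 0.38 to 0.67 for MDH1 to MDH2, 0.15 to 0.79 for GOT1 to GOT2, −0.23 to 0.86 for IDH1 to IDH2 and −0.067 to 0.76 for ME1 to ME2. Members with few counts are limited by depth.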
